A study of Mus with 3 samples.

Results

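The interferon-stimulated genes described here are 39 of the 27998 genes counted in single-cell RNA libraries of mouse whole lung. They were taken by symbol from a fixed list, all 39 were found in the count matrices, and each had at least 20 unique molecules (UMIs) over each pair of libraries compared. The study made 3 libraries, 1 from each of 3 groups of female mice aged 6 to 12 weeks, each pooling lung cells of 3 mice. WT PBS stands for wild-type mice given PBS, WT OVA for wild-type mice challenged with ovalbumin, and DJ-1 KO OVA for mice of the genotype DJ-1 KO under the same challenge. Where 3 values are given for the 3 libraries, they stand in that order. Ovalbumin is the allergen of this asthma model, and DJ-1 is the protein encoded by Park7. No DJ-1 KO library without ovalbumin was analysed here. The promoter or extent of the deletion is not given in the sources used here, and the title of the WT PBS sample names an ovalbumin challenge. The grouping follows its treatment label, which says PBS, as the library name does.

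Interferons are secreted proteins released when cells sense viral nucleic acid, microbial products or inflammatory signals. Type I interferons (alpha and beta) and type III interferons (lambda) signal through Jak kinases to a complex that includes Stat2 and Irf9, while type II interferon (gamma) is made mainly by T and natural killer cells and acts in part through Irf1. The resulting genes encode sensors of foreign nucleic acid, antiviral effectors, transcription factors, GTPases that attack the vacuoles of microbes, chemokines that draw in lymphocytes, and the machinery that loads peptides on MHC class I. In the lung, epithelial cells, alveolar macrophages, monocytes and neutrophils are known carriers of such a response.

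The deposited libraries held 4556, 6406 and 4666 barcodes with 26548669, 24438516 and 17339386 UMIs. After filtering, 3855, 5930 and 4438 cells were kept, with medians of 4093, 2060.5 and 1653 UMIs per cell, so the WT PBS library was the deepest per cell. A total of 372 barcodes occurred in both WT PBS and DJ-1 KO OVA, and the lower-UMI cell of each was left out, which removed 302 WT PBS and 65 DJ-1 KO OVA cells that had passed the other filters. WT OVA shared 6 barcodes with WT PBS and 5 with DJ-1 KO OVA. Park7 stood at 136 CPM in WT PBS, 100.3 in WT OVA and 20.8 in DJ-1 KO OVA, so some Park7 tags remained in the library labelled as the knockout. Tags from a part of the gene that was not deleted would be counted all the same, but the source of these tags was not tested. Cells were clustered without the 39 genes, and a cluster was named "X-like" from marker genes of that cell type. Doublet calling removed 57, 162 and 3 cells, and at 3 of 4666 barcodes it has not worked in DJ-1 KO OVA. With 1 library per group, no difference below has a replicate check and none was tested. Levels are in CPM, a gene's UMIs scaled to the total UMIs of the library or cell class. Brackets hold 95% intervals, exact Poisson for a level and exact conditional binomial for a ratio, which cover counting error only.

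In wild-type lung under PBS, most of the genes had their highest level in monocyte-like or neutrophil-like cells. Of the 9 classes with at least 50 cells in WT PBS, monocyte-like cells were highest for 14 of the 39 genes, neutrophil-like cells for 13 and natural killer-like cells for 6. In WT OVA the highest class was monocyte-like for 8 genes, neutrophil-like for 6, regulatory T-like for 5, alveolar macrophage-like and mesothelial-like for 4 each, and in DJ-1 KO OVA it was neutrophil-like for 8, monocyte-like for 7 and mesothelial-like for 6. These counts run over more classes in the OVA libraries, since fewer classes reached 50 cells in WT PBS. The highest and lowest classes given below are likewise among named classes with at least 50 cells unless stated. Summed over the 39 genes, the level was 2882, 2860.4 and 2758 CPM in monocyte-like cells of the 3 libraries, 2515, 1919 and 2226 CPM in neutrophil-like cells. It was 2938, 2230.3 and 2897 CPM in mesothelial-like cells and 403, 419 and 727 CPM in alveolar type 2-like cells. The mesothelial-like value of WT PBS comes from 33 cells, below the minimum of 50. Alveolar type 2-like cells, the surfactant-making epithelium, thus held the lowest sum of these 4 classes in every library.

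**Figure D1:**
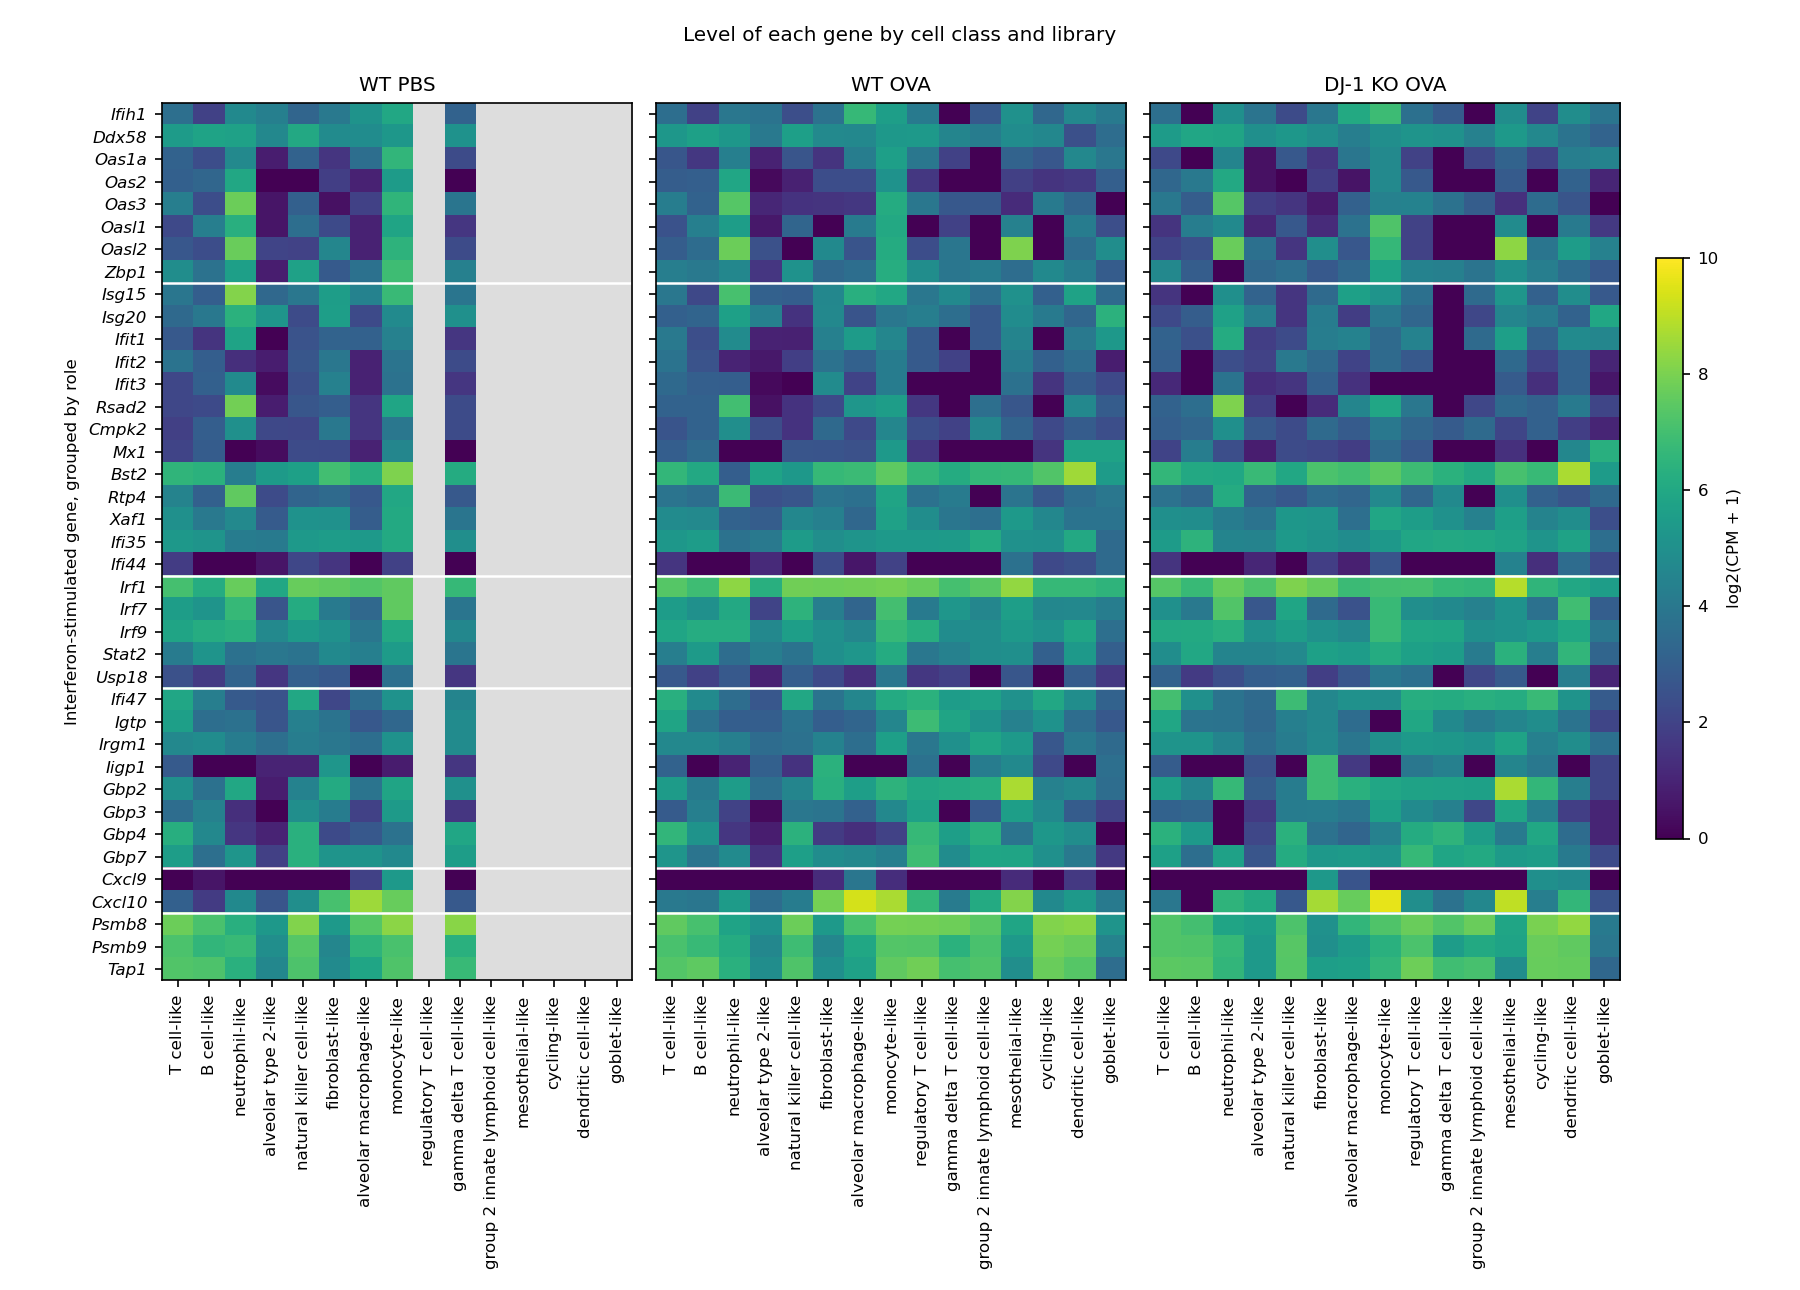
Heat map of the level of each of the 39 genes, as log2(CPM + 1), by cell class and library, with genes grouped by role and grey for a class with fewer than 50 cells in that library. Oas3, Isg15 and Rtp4 are brightest in the neutrophil-like column of WT PBS and Rsad2 in that of DJ-1 KO OVA, while Psmb8, Psmb9 and Tap1 are bright in the lymphoid columns of all 3 libraries.

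The sensors and oligoadenylate synthetases split between myeloid classes and a broader pattern. Oas3, one of the enzymes whose product switches on RNase L, stood at 212 CPM in WT PBS, 163 in WT OVA and 165 in DJ-1 KO OVA in neutrophil-like cells, and those cells held 59.6%, 51.1% and 31.1% of all Oas3 UMIs. Its level in monocyte-like cells was 92.4, 69.5 and 19.9 CPM, and in fibroblast-like cells it was 0.38, 1.86 and 0.663 CPM. Oas3 was therefore higher in the 2 myeloid classes than in fibroblast-like cells in all 3 libraries. Oasl2, a synthetase-like protein, was high in neutrophil-like cells, at 206 CPM in WT PBS, 213 in WT OVA and 208 in DJ-1 KO OVA. It was as high or higher in mesothelial-like cells, the lining of the pleura, at 268 in WT OVA and 314 in DJ-1 KO OVA. Ddx58, the cytosolic RNA sensor RIG-I, ranged in WT PBS from 24.4 CPM in alveolar type 2-like cells to 64.9 in natural killer-like cells. Its range over more classes was wider in the OVA libraries, from 4.39 CPM in dendritic-like to 50.7 in B-like cells of WT OVA and up to 59.9 in B-like cells of DJ-1 KO OVA. Ifih1, the sensor MDA5, was highest in monocyte-like cells in WT PBS and DJ-1 KO OVA and in alveolar macrophage-like cells in WT OVA, at 102 CPM (88.4 to 117). Zbp1, which senses left-handed nucleic acid and can trigger necroptosis, was highest in monocyte-like cells in each library, at 117, 73.8 and 54.8 CPM. Oas1a, Oas2 and Oasl1 were likewise highest in monocyte-like or neutrophil-like cells in each library.

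Among the antiviral effectors, neutrophil-like cells had the highest level of Isg15, Isg20, Ifit1, Ifit3, Rsad2, Cmpk2 and Rtp4 of the 9 classes of WT PBS with at least 50 cells. Isg15, a ubiquitin-like modifier, stood there at 285 CPM (262 to 309) against 108 in monocyte-like and 7.0 in B-like cells, and neutrophil-like cells held 49.9% of the Isg15 UMIs of the library. Rsad2 (viperin), which makes a chain-terminating nucleotide, stood at 235 CPM (214 to 257) in the same cells against 3.73 in B-like cells, with 60.7% of its UMIs there. The 22 erythroid-like cells of WT PBS, too few to compare, stood above them at 404 CPM (320.0 to 504). Bst2 (tetherin), which holds budding virus at the cell surface, showed another pattern: it was lowest in neutrophil-like cells of WT PBS and WT OVA, at 17.8 and 6.89 CPM, and highest in dendritic-like cells of WT OVA and DJ-1 KO OVA, at 380.0 and 426. Isg20, an exonuclease, was highest in goblet-like cells in WT OVA and DJ-1 KO OVA, at 84.6 and 62 CPM. Among named classes with at least 50 cells, Ifit2 had at most 17.5 CPM, in mesothelial-like cells of WT OVA. Ifi44 had at most 3.39 CPM in any such class of WT PBS and 32.4 CPM in endothelial-like cells of WT OVA, while Ifi35 and Xaf1 were present in all 9 classes of WT PBS, at 15.8 to 66.5 and 6.4 to 67.2 CPM.

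The factors differed in breadth. Irf1, the factor downstream of interferon gamma, had at least 63.5 CPM in every class of WT PBS with 50 cells or more and reached 335 and 468 in mesothelial-like cells of WT OVA and DJ-1 KO OVA. Irf7, the amplifier of type I interferon production, was highest in monocyte-like cells of WT PBS and WT OVA, at 186 and 127 CPM, and stood at 5.17 and 3.12 in alveolar type 2-like cells. Irf9 and Stat2, partners in the type I complex, were highest in WT OVA in monocyte-like cells, at 103 and 70.9 CPM. Usp18, which removes Isg15 from proteins and damps the receptor, was low throughout, with 127, 100 and 96 UMIs in the 3 libraries.

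The interferon-inducible GTPases had their highest levels outside neutrophil-like cells. Gbp2, a guanylate-binding protein, was highest in mesothelial-like cells of WT OVA and DJ-1 KO OVA, at 428 and 429 CPM, and those cells held 28.7% and 28% of its UMIs. Iigp1, an immunity-related GTPase, was carried by fibroblast-like cells, which held 56.2% and 70.2% of its UMIs in WT OVA and DJ-1 KO OVA. Its level there in the 3 libraries was 36.8, 82 and 115 CPM. T-like cells held the largest share of Gbp4, Igtp and Ifi47 in both wild-type libraries, and over the 3 libraries they held 45.4%, 42.8% and 21.8% of Gbp4 UMIs. In DJ-1 KO OVA a further 32.6% of Gbp4 UMIs lay in a cluster led by Rag1 and Dntt, called lymphocyte progenitor-like, where Gbp4 stood at 232 CPM (202 to 266) and Igtp at 128 CPM. That class held 796 cells, or 17.9%, of DJ-1 KO OVA against 29 and 11 cells of WT PBS and WT OVA. Their origin was not tested. Irgm1, Gbp3 and Gbp7 were spread over lymphoid, monocyte-like and mesothelial-like cells.

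The chemokines were concentrated in few classes. Cxcl10, a ligand of Cxcr3 that attracts activated T cells, was highest, among classes with at least 50 cells, in alveolar macrophage-like cells of WT PBS and WT OVA, at 366 CPM (331 to 405) and 652 CPM (617 to 689), and in monocyte-like cells of DJ-1 KO OVA, at 801 CPM (682 to 935). In WT PBS 30 interstitial macrophage-like cells stood higher, at 547 CPM (455 to 652), and 33 mesothelial-like cells at 384 CPM (329 to 446). Cxcl9, another Cxcr3 ligand, had only 64, 35 and 102 UMIs in the 3 libraries, and few cells carried them. In WT PBS, 55 of its 59 monocyte-like UMIs came from 1 cell, and in DJ-1 KO OVA 55 of its 59 fibroblast-like UMIs came from 1 cell. The class I genes Psmb8 and Psmb9, subunits of the immunoproteasome, and Tap1, a chain of the peptide transporter, were present in every class. Psmb8 ranged from 38.9 CPM in alveolar type 2-like to 307 CPM in monocyte-like cells of WT PBS.

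By position, several members are neighbours, in the coordinates of RefSeq's assembly GRCm38.p6, the build named mm10 in the submitters' processing notes, to which all 39 matched by symbol. Oas1a, Oas2 and Oas3 lie on chromosome 5, as do Oasl1 with Oasl2 and Cxcl9 with Cxcl10. Oas3 spans bases 120753098 to 120777684 and Oas2 spans bases 120730333 to 120749886. Ifit1, Ifit2 and Ifit3 lie on chromosome 19, Rsad2 beside Cmpk2 on chromosome 12 with Rsad2 at bases 26442743 to 26456452 and Cmpk2 at bases 26469117 to 26479837, and Psmb8, Psmb9 and Tap1 together on chromosome 17. The neighbours Rsad2 and Cmpk2 were spread differently over the classes of WT PBS: neutrophil-like cells held 60.7% of Rsad2 and 29.2% of Cmpk2 UMIs, and fibroblast-like cells 2.37% and 19.1%. The counting could split or drop reads of near-identical copies, so Ifit1, Ifit3, Oas1a and the Gbp genes are uncertain to that extent, and the table lists Mx1 as a transcribed pseudogene.

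WT OVA beside WT PBS shows the genes after allergen challenge of wild-type mice. Over all kept cells, several oligoadenylate synthetase and effector genes stood lower in WT OVA and Cxcl10, Mx1 and Iigp1 stood higher. Past 1.5-fold, 3 of 39 members were higher and 10 lower, where 10.3% and 7.71% of all 14947 genes with at least 20 UMIs over both libraries were. The same minimum holds for every count of members and of all genes below. The median log2 ratio was -0.25 over the 39 genes and 0.02 over all genes. Such a sum over all cells cannot tell fewer cells of a type from less RNA per cell, and neutrophil-like cells made up 15.4%, 10.7% and 4.8% of the 3 libraries. With every class weighted by its share of WT OVA cells in both libraries, 1 member instead of 10 was lower past 1.5-fold.

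The lowest member was Oas3, at 28.6 CPM (26.5 to 30.8) in WT PBS, 14.2 CPM (12.7 to 15.8) in WT OVA and 7.16 CPM (5.94 to 8.54) in DJ-1 KO OVA, a WT OVA to WT PBS ratio of 0.495 (0.433 to 0.565). Next was Rsad2, at 31.1 CPM in WT PBS, 16 in WT OVA and 12.5 in DJ-1 KO OVA with a ratio of 0.514 (0.452 to 0.583). Zbp1 followed, at 25.9 CPM in WT PBS, 13.7 in WT OVA and 11.6 in DJ-1 KO OVA with 0.529 (0.46 to 0.606). Among classes with at least 50 cells, all 3 had their highest level in neutrophil-like or monocyte-like cells, which are described by class below. The highest was Mx1, a dynamin-like GTPase, at 4.29 CPM in WT PBS, 8.42 in WT OVA and 11.4 in DJ-1 KO OVA and a ratio of 1.96 (1.54 to 2.51). Cxcl10 stood at 65.8 CPM in WT PBS, 119.5 in WT OVA and 114 in DJ-1 KO OVA, a ratio of 1.82 (1.71 to 1.93). Iigp1 stood at 7.92 CPM in WT PBS, 13.7 in WT OVA and 14.5 in DJ-1 KO OVA, a ratio of 1.72 (1.44 to 2.07). By role, the median log2 ratio was -0.62 for the 8 sensors and synthetases (4 lower, 0 higher), -0.32 for the 13 effectors (3 lower, 1 higher), -0.20 for the 5 factors, -0.12 for the 8 GTPases and -0.40 for the 3 class I genes.

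The OVA libraries, DJ-1 KO OVA over WT OVA, set the same genes of the 2 genotypes side by side under allergen. This comparison shares the WT OVA library with the one above. Over all kept cells 3 members were higher past 1.5-fold and 4 lower, where 12.3% and 9.1% of all genes were, and the median log2 ratio was -0.05 against 0.07 over all genes. Ifit3, which binds viral RNA with its partners, was lowest, at 8.25 CPM in WT PBS, 6.54 in WT OVA and 2.05 in DJ-1 KO OVA and a ratio of DJ-1 KO OVA to WT OVA of 0.314 (0.211 to 0.456). Oas3 and Oas2 followed, at 0.505 (0.407 to 0.624) and 0.543 (0.397 to 0.736), and Isg15, at 45.8 CPM in WT PBS, 26 in WT OVA and 14.6 in DJ-1 KO OVA, had a ratio of 0.562 (0.483 to 0.653). Of these 4 genes, Oas2 and Oas3 had their largest share of UMIs in neutrophil-like cells of every library, and those cells were 213 of 4438 in DJ-1 KO OVA. These counts moved with the processing. Lower members numbered 2 without neutrophil-like cells, 2 with classes weighted as above, 7 with cells weighted alike and 9 after thinning each cell to 1000 UMIs, and higher members numbered 1 with classes weighted, 5 with cells weighted alike, 6 after thinning and 9 without both cells of every shared barcode.

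Cxcl9 was highest in that comparison, at 2.61 CPM in WT PBS, 1.53 in WT OVA and 5.98 in DJ-1 KO OVA and a ratio of 3.92 (2.65 to 5.93). Its log2 ratio moved from 1.97 to 1.12 when its highest cell in each library was left out. Ifi47, a GTPase of the immunity-related family, stood at 26.1 CPM in WT PBS, 28.3 in WT OVA and 45.1 in DJ-1 KO OVA, a ratio of 1.59 (1.43 to 1.77). Stat2 stood at 19.7 CPM in WT PBS, 23.1 in WT OVA and 35.1 in DJ-1 KO OVA, a ratio of 1.52 (1.35 to 1.72). Both were higher in several classes: Ifi47 was higher past 1.5-fold in 7 of the 14 classes in which it had at least 20 UMIs and lower in 1, and Stat2 was higher in 6 of 11 and lower in none. Gbp4 lay at the threshold at 1.5 (1.34 to 1.68), with the lymphocyte progenitor-like cells in the sum. By role, the 8 GTPases had a median log2 ratio of 0.36, the 8 sensors and synthetases -0.20 and the 13 effectors -0.19.

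**Figure D2:**
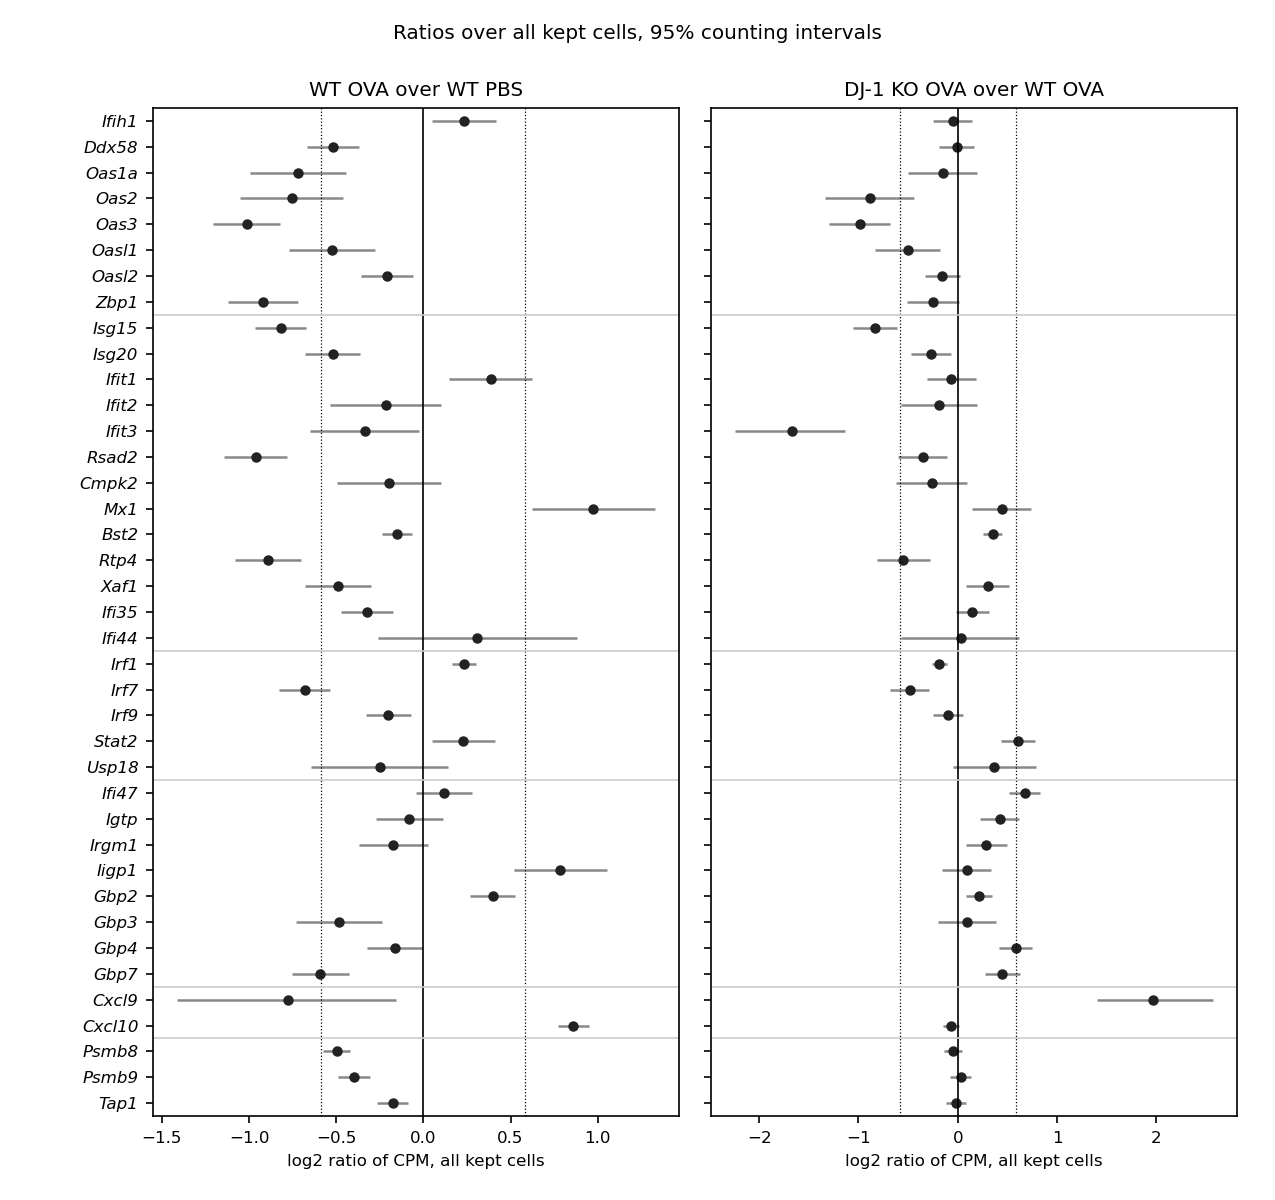
Ratio of each of the 39 genes over all kept cells on a log2 axis, WT OVA over WT PBS and DJ-1 KO OVA over WT OVA, with bars for the 95% counting interval and lines at 1.5-fold. Mx1, Cxcl10 and Iigp1 lie beyond the upper line in the first comparison, and Cxcl9, Ifi47 and Stat2 in the second.

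The median over the members differed in sign between classes in both comparisons. The median log2 ratio of WT OVA to WT PBS was 0.64 in alveolar macrophage-like cells and -0.47 in neutrophil-like cells, with -0.11 and 0.09 over all genes in those classes. Between the OVA libraries it was 0.67 in alveolar type 2-like cells, 0.29 in mesothelial-like and 0.25 in fibroblast-like cells, and -0.29 in alveolar macrophage-like, -0.40 in monocyte-like and -0.49 in goblet-like cells. Between these, T-like and B-like cells had medians of 0.06 and 0.18 in the first comparison and 0.01 and 0.00 in the second. In regulatory T-like, gamma delta T-like, group 2 innate lymphoid-like and cycling cells the medians between the OVA libraries were -0.20, -0.23, -0.57 and -0.09. They cover 19, 10, 11 and 20 members with at least 20 UMIs. By class, medians over all genes between the OVA libraries are given only for T-like cells. The other signs cannot be called particular to the members. Past 1.5-fold, 17.8% of all genes were higher and 8.61% lower in alveolar type 2-like cells, and 12% and 18.1% in alveolar macrophage-like cells. These shares and those of fibroblast-like cells leaned as the member medians did. Those of mesothelial-like, monocyte-like and goblet-like cells (16.9% and 9.9%) leaned the other way.

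**Figure D3:**
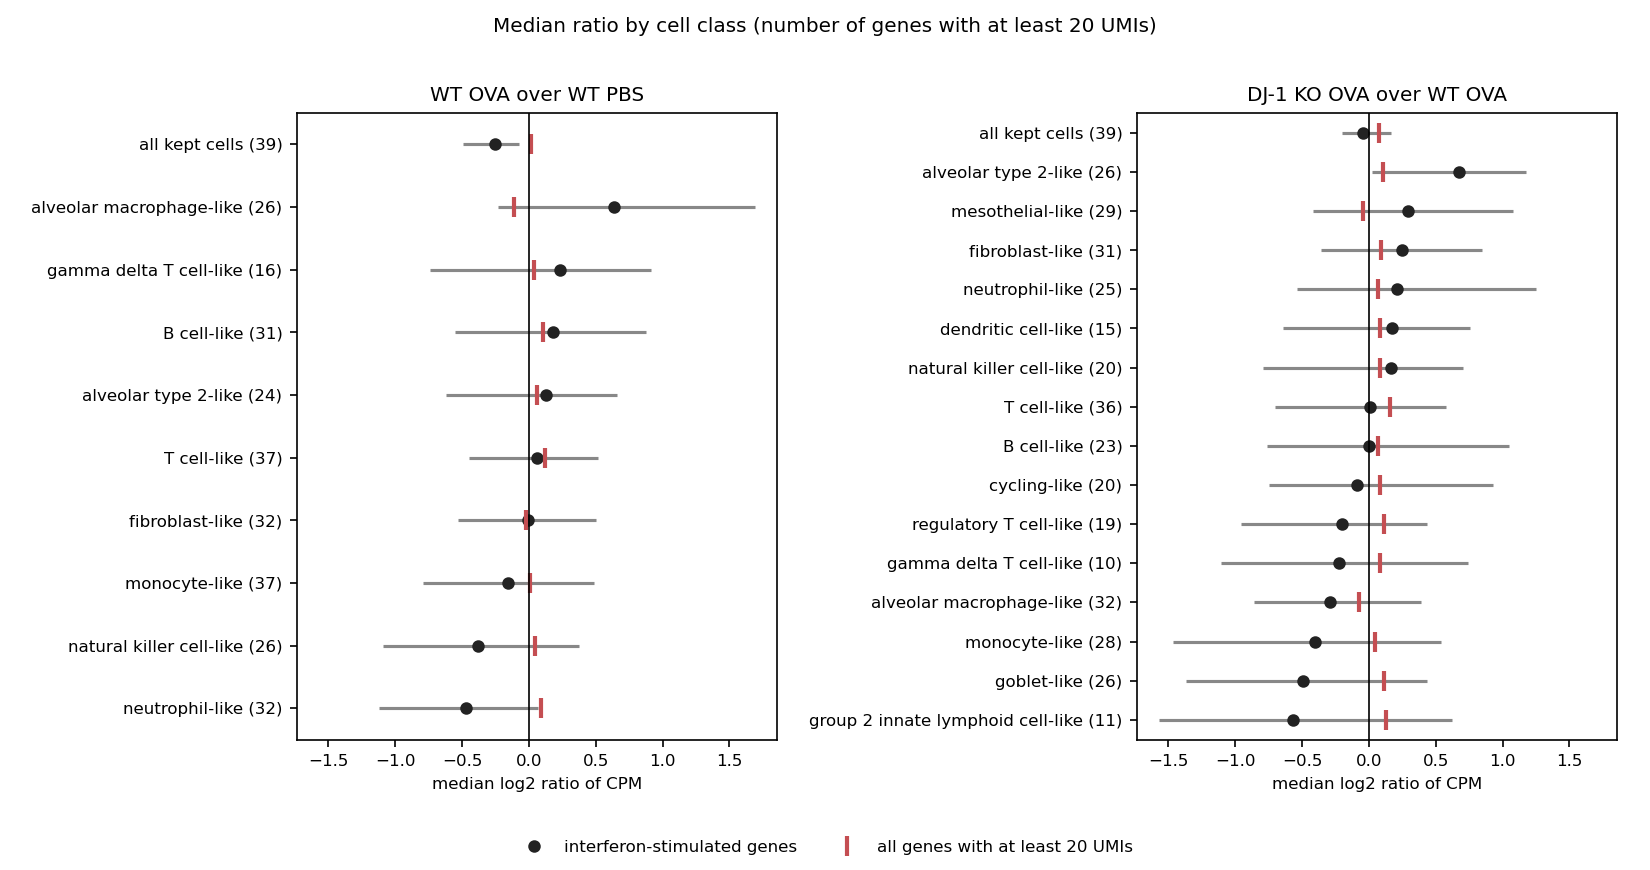
Median log2 ratio of the members with at least 20 UMIs in each class, with bars from the median of the members' lower interval bounds to the median of their upper bounds and a red tick at the median over all genes, for both comparisons. Alveolar macrophage-like cells have the highest member median for WT OVA over WT PBS and alveolar type 2-like cells the highest between the OVA libraries.

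Neutrophil-like cells of WT OVA had less of most antiviral effectors than those of WT PBS, with 8 of the 10 passing effectors lower past 1.5-fold. Of 32 members with at least 20 UMIs, 14 were lower past 1.5-fold and 3 higher, where 9.97% and 14.5% of all genes in the class were. Isg15 stood at 285 CPM (262 to 309) in WT PBS, 134 CPM (112 to 158) in WT OVA and 30.3 CPM (12.2 to 62.5) in DJ-1 KO OVA. It was therefore lower in WT OVA, a ratio to WT PBS of 0.471 (0.387 to 0.569), and lower again in DJ-1 KO OVA, a ratio to WT OVA of 0.226 (0.0893 to 0.479). UMIs of Isg15 occurred in 244 of 595 cells in WT PBS, 98 of 636 in WT OVA and 4 of 213 in DJ-1 KO OVA. They occurred in 10 of 635 and 3 of 950 B-like cells of WT PBS and WT OVA, whose level was 7.0 and 3.52 CPM. The 339 B-like cells of DJ-1 KO OVA held no Isg15 UMI, where the floor of 3 counts is 6.65 CPM. The median depth was 2946, 1321 and 983 UMIs in neutrophil-like and 2996, 1300.5 and 1112 in B-like cells, which bears on these shares of cells.

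Rsad2 was also lower in neutrophil-like cells of WT OVA than of WT PBS, at 235 CPM in WT PBS, 124 in WT OVA and 268 in DJ-1 KO OVA and a ratio of 0.528 (0.43 to 0.645). It was not low in DJ-1 KO OVA, but 29 of its 62 UMIs there came from 1 cell, and without that cell the level was 143 CPM. Ifit3 had the lowest ratio of WT OVA to WT PBS, 0.256 (0.0982 to 0.565), from 26.9 to 6.89 CPM. It was followed by Xaf1, a partner of apoptosis inhibitors, at 0.316 (0.129 to 0.674) and Bst2 at 0.388 (0.145 to 0.885), of whose 35 WT PBS UMIs 17 came from 1 cell. Rtp4, a receptor transport protein with antiviral activity, stood at 189, 110.3 and 69.3 CPM in the 3 libraries, and Zbp1 at 49.3, 23.6 and 0. Among the synthetases and synthetase-like genes, Oas2 and Oasl2 had ratios of 0.953 (0.688 to 1.31) and 1.03 (0.87 to 1.22), Oas1a of 0.751 (0.418 to 1.3) and Oas3 of 0.77 (0.639 to 0.923). Oasl1 was lower past 1.5-fold, at 77.3 and 46.3 CPM and a ratio of 0.599 (0.422 to 0.836).

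In the opposite direction, Irf1 in neutrophil-like cells was 205 CPM in WT PBS, 314 in WT OVA and 204 in DJ-1 KO OVA. The WT OVA to WT PBS ratio was 1.53 (1.32 to 1.78) and the DJ-1 KO OVA to WT OVA ratio 0.648 (0.466 to 0.882). Cxcl10 was 25.9 CPM in WT PBS, 44.3 in WT OVA and 90.9 in DJ-1 KO OVA, with ratios of 1.71 (1.12 to 2.6) and 2.05 (1.16 to 3.52). Ifi47, at 12, 11 and 3 UMIs, had a WT OVA to WT PBS ratio of 1.78 (0.71 to 4.4), whose interval includes 1. Neutrophil-like cells thus held more Irf1 in WT OVA than in either of the other libraries. Beside these values, the median log2 ratio of 10 NF-kB genes, among them Nfkbia and Tnf, was 0.48 for WT OVA over WT PBS and 0.72 between the OVA libraries in the same cells. That of 12 immediate early genes was 0.19 and 0.42. Their part in the result was not tested.

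Between the OVA libraries 25 members passed in neutrophil-like cells, 8 higher in DJ-1 KO OVA and 5 lower, where 19% and 18.1% of all genes were. With 213 cells in DJ-1 KO OVA the counts are small. Zbp1 had 24 UMIs in WT OVA and none in DJ-1 KO OVA, which allows up to 3, so that its level there was no more than 0.55 of that in WT OVA. Oasl1, which represses translation of Irf7, stood at 46.3 and 26 CPM, a ratio of 0.561 (0.196 to 1.32) that does not exclude 1. Irf7 stood at 64 and 156 CPM, a ratio of 2.44 (1.57 to 3.71), Ifit1 at 27.6 and 69.3, a ratio of 2.51 (1.27 to 4.81), and Bst2 at 6.89 and 60.6, a ratio of 8.79 (3.32 to 25.7) with 7 and 14 UMIs. The Ifit1 log2 ratio was -0.10 instead of 1.33 after thinning to 1000 UMIs per cell, and that of Bst2 was 1.57 instead of 3.14 without the highest cell of each library. The members thus differed in direction within this class, with Isg15 low and Irf7 high in DJ-1 KO OVA.

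Alveolar macrophage-like cells held more of many of the same genes in WT OVA than in WT PBS. They formed 1 cluster of 59, 188 and 261 cells, led by Chil3, Mmp12 and Ear2. Of 26 members that passed, 14 were higher in WT OVA than in WT PBS past 1.5-fold and 0 lower, where 10.1% and 16.5% of all genes were. Isg15 stood at 20.9 CPM (13.1 to 31.6) in WT PBS, 77.4 CPM (65.6 to 90.8) in WT OVA and 50.2 CPM (41.6 to 60.2) in DJ-1 KO OVA, a WT OVA to WT PBS ratio of 3.71 (2.36 to 6.1). It occurred in 11 of 59 cells in WT PBS, 67 of 188 in WT OVA and 59 of 261 in DJ-1 KO OVA. Ifih1 stood at 34.2 CPM in WT PBS, 102 in WT OVA and 67.3 in DJ-1 KO OVA, a ratio of 2.99 (2.09 to 4.39), and occurred in 23 of 59 cells in WT PBS, 85 of 188 in WT OVA and 79 of 261 in DJ-1 KO OVA. Both genes were spread over many cells and were lower in DJ-1 KO OVA, at ratios to WT OVA of 0.649 (0.505 to 0.831) and 0.659 (0.531 to 0.816).

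Rsad2 had the highest ratio of WT OVA to WT PBS in alveolar macrophage-like cells, 19.7 (5.27 to 166), from 2 WT PBS and 73 WT OVA UMIs, with levels of 1.9 CPM in WT PBS, 37.4 in WT OVA and 22.1 in DJ-1 KO OVA. Its UMIs lay in 2, 17 and 15 cells, and its level in B-like cells was 3.73, 7.75 and 11.1 CPM. Oasl1 had 1, 33 and 30 UMIs and a ratio of 17.8 (2.99 to 725), and at 16.9 CPM in WT OVA it did not exceed the 19 CPM of B-like cells. Ifit1 stood at 7.59 CPM in WT PBS, 43.6 in WT OVA and 20.9 in DJ-1 KO OVA, a ratio of 5.74 (2.79 to 13.7), with 7 of its 8 WT PBS UMIs in 1 cell. Its log2 ratio was 2.52 with the highest cells and 5.09 without them. Of the other members, Gbp2 was 13.3 CPM in WT PBS, 47.2 in WT OVA and 81.3 in DJ-1 KO OVA, with ratios of 3.55 (2.01 to 6.75) and 1.72 (1.34 to 2.23). Stat2 was 19 CPM in WT PBS, 37.4 in WT OVA and 45.1 in DJ-1 KO OVA. The class I genes Psmb8 and Psmb9 did not share the direction: Psmb9, Gbp7 and Psmb8 had the lowest ratios of WT OVA to WT PBS, at 0.69 (0.522 to 0.914), 0.706 (0.447 to 1.12) and 0.839 (0.69 to 1.02).

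Cxcl10 in alveolar macrophage-like cells was 366 CPM (331 to 405) in WT PBS, 652 CPM (617 to 689) in WT OVA and 206 CPM (188 to 225) in DJ-1 KO OVA, ratios of 1.78 (1.59 to 2.0) and 0.315 (0.283 to 0.35). It was found in 28 of 59 cells in WT PBS, 124 of 188 in WT OVA and 80 of 261 in DJ-1 KO OVA, and in DJ-1 KO OVA 128 of its 483 UMIs came from 1 cell, without which the level was 152 CPM. Irf1 ran parallel, at 158 CPM in WT PBS, 226 in WT OVA and 111 in DJ-1 KO OVA, ratios of 1.44 (1.2 to 1.73) and 0.491 (0.42 to 0.574). Cxcl10 and Irf1 were thus highest in WT OVA and lowest in DJ-1 KO OVA. Against WT OVA, 9 of 32 members were lower in DJ-1 KO OVA and 6 higher, where 18.1% and 12% of all genes were. Cxcl9, at 3, 28 and 12 UMIs, and Ifit2, at 1, 15 and 7, were also among the lowest, with ratios of 0.356 (0.165 to 0.722) and 0.387 (0.134 to 1.01). The higher members included Gbp4 at 5.53 (1.64 to 29.1), Oas3 at 3.74 (1.23 to 15.2), Gbp3 at 1.83 (0.965 to 3.62) and Gbp7 at 1.77 (1.24 to 2.55), so these guanylate-binding proteins and Cxcl10 lay on opposite sides of 1. Beside these, the NF-kB genes had medians of 0.47 and -0.36 in the 2 comparisons and the immediate early genes -0.42 and -0.01, and the median depth of these cells was 17163, 10371.5 and 5870.0 UMIs. Their part in the result was not tested.

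Monocyte-like cells, 185, 202 and 92 cells led by F13a1, Ms4a6c and Plac8, had as many members higher as lower in WT OVA against WT PBS. Of 37 members, 8 were higher and 8 lower past 1.5-fold, where 11.4% and 11.5% of all genes were. Isg15, Zbp1 and Oas1a were lower, at 0.574 (0.40 to 0.809), 0.632 (0.452 to 0.869) and 0.517 (0.344 to 0.758) of their WT PBS level. Cxcl10, Ifi47 and Igtp were higher, at 2.09 (1.77 to 2.47), 2.07 (1.35 to 3.17) and 2.55 (1.15 to 5.75), as were Irf9 at 1.6 (1.15 to 2.2) and Stat2 at 1.64 (1.1 to 2.42). Cxcl10 stood at 202 CPM in WT PBS, 423 in WT OVA and 801 in DJ-1 KO OVA, so that WT PBS was lowest and DJ-1 KO OVA highest. In DJ-1 KO OVA it occurred in 31 of 92 cells with 44 of 161 UMIs in 1 cell. Cxcl9 had a ratio of 0.0351 (0.000873 to 0.203), which rests on the 1 WT PBS cell named above, and Gbp4, at 18, 2 and 4 UMIs, a ratio of 0.23 (0.0259 to 0.96).

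Monocyte-like cells of the OVA libraries had 11 of 28 members lower and 5 higher in DJ-1 KO OVA, where 17.1% and 18.1% of all genes were. Mx1 stood at 23.1 CPM in WT PBS, 40.5 in WT OVA and 9.96 in DJ-1 KO OVA, a ratio of 0.246 (0.0284 to 0.974) from 28 and 2 UMIs. Oas3 stood at 92.4 CPM in WT PBS, 69.5 in WT OVA and 19.9 in DJ-1 KO OVA, a ratio of 0.287 (0.075 to 0.783). The class I genes were lower together, with ratios of 0.629 (0.411 to 0.933) for Psmb8, 0.50 (0.276 to 0.849) for Psmb9 and 0.51 (0.298 to 0.83) for Tap1. Oasl1 and Ifih1 were higher, at 2.29 (1.39 to 3.72) and 2.4 (1.34 to 4.21), and Gbp3 at 2.02 (0.828 to 4.68), while Ifi47, at 47 and 6 UMIs, had a ratio of 0.439 (0.153 to 1.03). The median depth of the class was 7351, 3237.5 and 1247.5 UMIs per cell in the 3 libraries, and its part in these results was not tested.

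**Figure D4:**
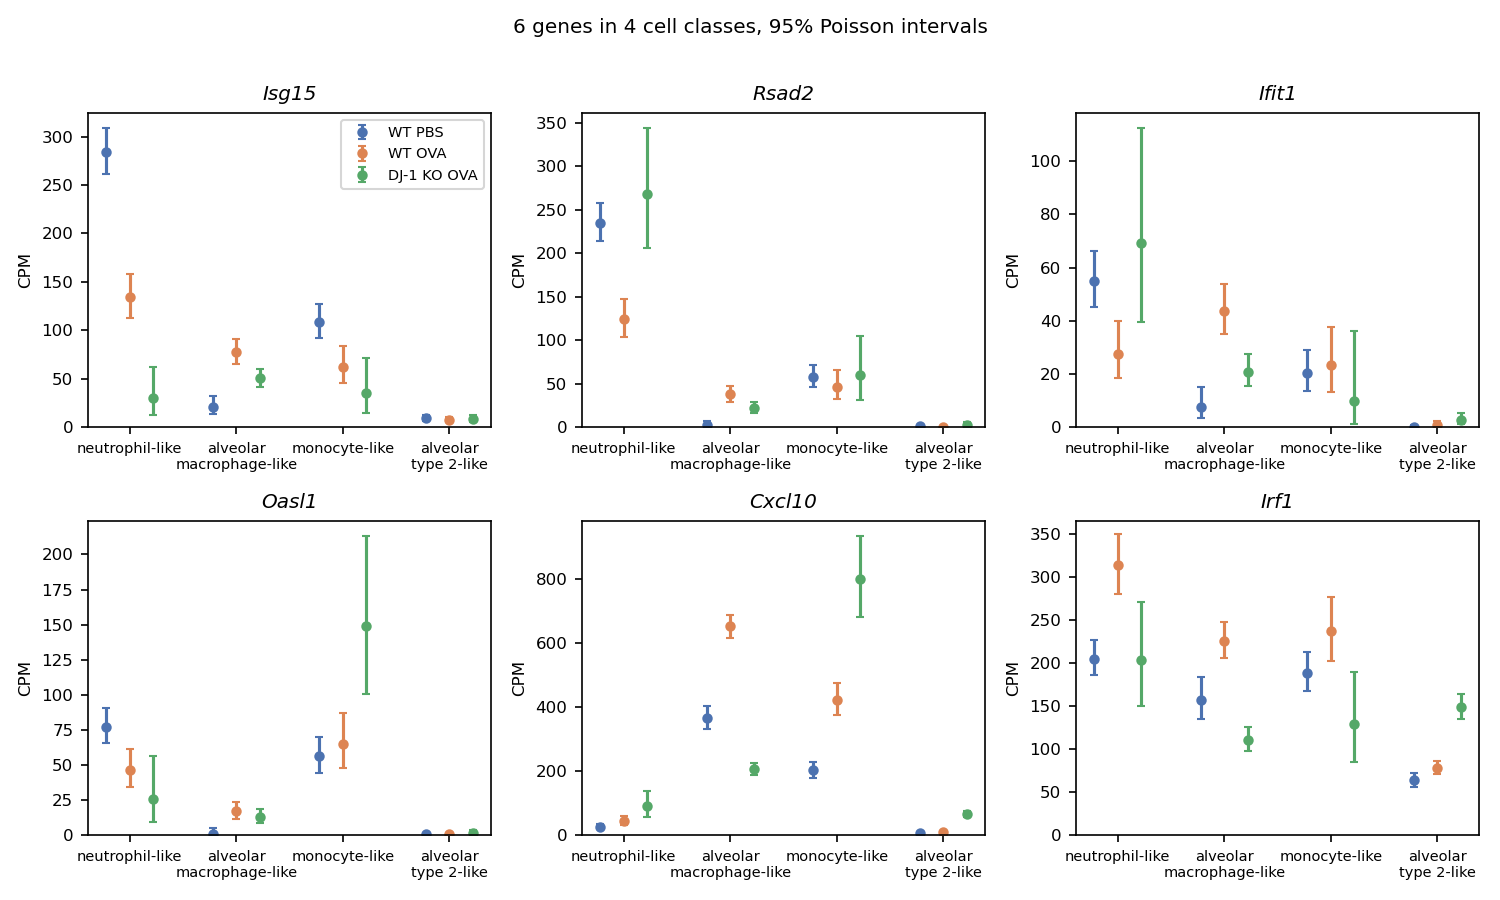
Levels in CPM, on linear axes that start at 0, of Isg15, Rsad2, Ifit1, Oasl1, Cxcl10 and Irf1 in neutrophil-like, alveolar macrophage-like, monocyte-like and alveolar type 2-like cells of the 3 libraries, with 95% counting intervals. In neutrophil-like cells Isg15 is highest in WT PBS and lowest in DJ-1 KO OVA, in alveolar macrophage-like cells it is highest in WT OVA, and Cxcl10 is higher in DJ-1 KO OVA in monocyte-like and alveolar type 2-like cells but lower in alveolar macrophage-like cells.

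Alveolar type 2-like cells had low levels of the antiviral genes in all libraries and higher levels of many in DJ-1 KO OVA. In WT OVA against WT PBS, 3 of 24 members were higher and 4 lower, where 8.28% and 7.05% of all genes were. The 3 higher members were Gbp2, from 3 to 63 UMIs, Iigp1, from 4 to 40, and Cxcl10, from 21 to 57, with ratios of 15.7 (5.13 to 78.1), 7.47 (2.7 to 28.7) and 2.03 (1.21 to 3.52). Of those WT OVA UMIs, 46 of Gbp2 and 34 of Iigp1 lay in 3 cells each. Isg20 was lowest, at 35.7 CPM in WT PBS, 19.3 in WT OVA and 18.2 in DJ-1 KO OVA and 0.541 (0.417 to 0.70), with Irf7 at 0.604 (0.299 to 1.2) and Gbp7 at 0.611 (0.224 to 1.62), whose intervals include 1.

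In alveolar type 2-like cells 13 of 26 members were higher in DJ-1 KO OVA than in those of WT OVA and 2 lower, where 17.8% and 8.61% of all genes were. After thinning 6 of the 8 members left were higher. Different clusters held the class in the OVA libraries: 732 of 770 WT OVA cells lay in cluster 4, led by Sftpc and Sftpb, and 201 of 296 DJ-1 KO OVA cells in cluster 26, led by Slc26a4, Chia1 and Il33. Within cluster 4 alone, with 732 and 95 cells, 5 of 21 members were higher and 3 lower, and the median log2 ratio was 0.24 instead of 0.67. The shares of all genes past 1.5-fold within cluster 4 are not given here, so these counts cannot be called particular to the members. Bst2 stood at 42.3 CPM (36.2 to 49.2) in WT PBS, 54.8 CPM (48.7 to 61.4) in WT OVA and 108 CPM (96.2 to 121) in DJ-1 KO OVA, a ratio of 1.98 (1.68 to 2.33). Irf1 stood at 63.5 CPM in WT PBS, 78.5 in WT OVA and 149 in DJ-1 KO OVA, a ratio of 1.89 (1.65 to 2.18). Cxcl10 stood at 5.17 CPM in WT PBS, 10.5 in WT OVA and 66 in DJ-1 KO OVA, a ratio of 6.3 (4.65 to 8.64), with 81 of 178 UMIs in 1 cell and 36.1 CPM without it. The Cxcl10 difference did not hold within cluster 4, where its log2 ratio was -0.47.

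Smaller counts went the same way in alveolar type 2-like cells. Usp18 had 8, 5 and 19 UMIs and a DJ-1 KO OVA to WT OVA ratio of 7.66 (2.77 to 26.3), Zbp1 3, 11 and 25 and 4.58 (2.18 to 10.3), and Oasl2 13, 25 and 32 and 2.58 (1.48 to 4.54). Ddx58, Psmb9 and Xaf1 were also higher, at 1.95 (1.42 to 2.67), 1.73 (1.33 to 2.25) and 1.91 (1.17 to 3.11). Isg15 was not among them, at 9.35 CPM in WT PBS, 7.72 in WT OVA and 8.15 in DJ-1 KO OVA and a ratio of 1.06 (0.60 to 1.81), beside the 7.0 and 3.52 CPM of B-like cells. Gbp2 and Iigp1 were the 2 lower members, at 0.576 (0.321 to 0.985) and 0.655 (0.322 to 1.25), and Isg20 had 0.941 (0.656 to 1.33). For Gbp2 the direction turned, to a log2 ratio of 0.11 from -0.80, within cluster 4 and equally after thinning. Beside these values, 7 of 10 NF-kB genes were higher in DJ-1 KO OVA, with a median of 1.15, the immediate early genes had a median of -0.49, and of other interferon-stimulated genes 19 of 39 were higher, with a median of 0.57. Their part in the result was not tested.

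Fibroblast-like cells carried Iigp1 and Cxcl10, both higher in the OVA libraries. Of 32 members, 5 were higher and 8 lower in WT OVA against WT PBS, where 7.41% and 10% of all genes were. Between the OVA libraries, 8 of 31 were higher and 4 lower, where 13.7% and 7.98% were. Iigp1 stood at 36.8 CPM (29.9 to 44.9) in WT PBS, 82 CPM (70.3 to 95) in WT OVA and 115 CPM (98.9 to 134) in DJ-1 KO OVA, ratios of 2.23 (1.73 to 2.88) and 1.41 (1.14 to 1.75). Cxcl10 stood at 136 CPM in WT PBS, 242 in WT OVA and 401 in DJ-1 KO OVA, ratios of 1.79 (1.56 to 2.05) and 1.66 (1.47 to 1.87), with 197 of 605 DJ-1 KO OVA UMIs in 1 cell and 272 CPM without it. Ifi47 was 3.42 CPM in WT PBS, 13 in WT OVA and 23.9 in DJ-1 KO OVA, ratios of 3.82 (1.75 to 9.19) and 1.83 (1.09 to 3.12). These 3 genes each had their highest fibroblast-like level in DJ-1 KO OVA and their lowest in WT PBS.

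Isg15 ran the other way in fibroblast-like cells, at 46.3 CPM in WT PBS, 23.8 in WT OVA and 9.95 in DJ-1 KO OVA, ratios of 0.513 (0.362 to 0.717) and 0.419 (0.219 to 0.757), with 47 of 122 WT PBS UMIs in 1 cell. Isg20 was 47.1 CPM in WT PBS, 24.7 in WT OVA and 17.3 in DJ-1 KO OVA, a WT OVA to WT PBS ratio of 0.524 (0.373 to 0.729). Ifit3 was 20.1 CPM in WT PBS, 27.5 in WT OVA and 7.3 in DJ-1 KO OVA, with a DJ-1 KO OVA to WT OVA ratio of 0.266 (0.126 to 0.51), and Irf7 had 0.548 (0.281 to 1.02). Igtp, at 12.9 CPM in WT PBS, 6.99 in WT OVA and 23.9 in DJ-1 KO OVA, had ratios of 0.541 (0.274 to 1.02) and 3.42 (1.83 to 6.72), so that its WT OVA level was below both others. Ifit1, at 7.97 CPM in WT PBS, 19.6 in WT OVA and 17.9 in DJ-1 KO OVA, had a WT OVA to WT PBS ratio of 2.45 (1.42 to 4.36), but 22 of its 42 WT OVA UMIs came from 1 cell. The Ifit1 log2 ratio was 0.44 instead of 1.29 without the highest cells. Gbp4 had 10, 5 and 19 UMIs and a DJ-1 KO OVA to WT OVA ratio of 5.41 (1.95 to 18.5), and Cxcl9 one of 28 (9.13 to 139.7) that rests on the 1 cell named above.

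Mesothelial-like cells, 33, 105 and 69 cells led by Upk3b, Igfbp5 and Msln, could be compared only between the OVA libraries. Of 29 members, 8 were higher and 0 lower in DJ-1 KO OVA, where 10.9% and 15.6% of all genes were. Stat2 stood at 30.9 CPM in WT OVA and 83.3 in DJ-1 KO OVA, a ratio of 2.69 (1.62 to 4.61), Cxcl10 at 284 and 526, a ratio of 1.85 (1.55 to 2.21), and Irf1 at 335 and 468, a ratio of 1.4 (1.18 to 1.66). Zbp1 and Ifit1, with 8 and 16 WT OVA UMIs, had ratios of 2.83 (1.18 to 7.47) and 2.31 (1.22 to 4.52). The lowest were Irf7, Gbp7 and Isg20, at 0.715 (0.396 to 1.26), 0.766 (0.454 to 1.27) and 0.795 (0.374 to 1.64). Oasl2 and Gbp2, its most abundant synthetase-like protein and GTPase, had ratios of 1.17 (0.959 to 1.44) and 1.0 (0.851 to 1.19).

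Goblet-like cells held the largest share of Mx1 in the OVA libraries. The goblet-like cluster, led by Clca1, Chil4 and Reg3g, held 23, 57 and 74 cells, and had 38.3% of the Mx1 UMIs of WT OVA and 75.9% of those of DJ-1 KO OVA, at 53.5 CPM (42 to 67.2) and 79.1 CPM (66.8 to 92.9). Mx1 UMIs occurred in 31 of 57 and 51 of 74 goblet-like cells, against 11 of 950 and 6 of 339 B-like cells, with median depths of 25757 and 22217 UMIs in goblet-like and 1300.5 and 1112 in B-like cells of those libraries. In WT PBS 5 of 23 goblet-like cells had a UMI, at a median depth of 46974 UMIs, and that class is too small there to compare. The Mx1 ratio of DJ-1 KO OVA to WT OVA was 1.48 (1.11 to 1.98), just under the threshold. Mx1 was thus spread over most goblet-like cells of the OVA libraries, which held more of these cells than WT PBS. The part of their number in the Mx1 levels over all kept cells was not tested.

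Many members were lower in goblet-like cells of DJ-1 KO OVA than of WT OVA: 11 of 26 were lower and 0 higher, where 9.9% and 16.9% of all genes were. Irf1 stood at 88.9 and 47 CPM, a ratio of 0.529 (0.397 to 0.701). Iigp1, Gbp2 and Cxcl10 had the lowest ratios, 0.277 (0.0888 to 0.745), 0.295 (0.0939 to 0.806) and 0.302 (0.122 to 0.683). Of these, 14 of the 15 Gbp2 UMIs of WT OVA came from 1 cell, without which, and without the highest cell of DJ-1 KO OVA, its log2 ratio was 1.58 instead of -1.76. Oas1a and Irf9 were the highest after Mx1, at 1.48 (0.844 to 2.67) and 1.25 (0.648 to 2.48). Beside these, the median of the NF-kB genes was -1.07 and of the immediate early genes -0.61, and their part in the result was not tested.

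T-like cells, the largest class, had member medians of 0.06 and 0.01 in the 2 comparisons, beside 0.12 and 0.16 over all genes. Of 37 members, 6 were higher and 3 lower in WT OVA against WT PBS, where 13.2% and 6.12% of all genes were, and between the OVA libraries 2 of 36 were higher in DJ-1 KO OVA and 8 lower, where 12.6% and 6.56% were. Isg15 stood at 14.2 CPM (10.8 to 18.3) in WT PBS, 14.8 CPM (10.5 to 20.3) in WT OVA and 1.81 CPM (0.372 to 5.28) in DJ-1 KO OVA, a DJ-1 KO OVA to WT OVA ratio of 0.122 (0.0241 to 0.384). It occurred in 48, 29 and 3 cells. Ifit3 was 3.43 CPM in WT PBS, 9.74 in WT OVA and 1.2 in DJ-1 KO OVA, ratios of 2.84 (1.42 to 5.92) and 0.124 (0.0142 to 0.495). Ifi47 was 59 CPM in WT PBS, 78.7 in WT OVA and 128 in DJ-1 KO OVA, a DJ-1 KO OVA to WT OVA ratio of 1.63 (1.34 to 1.98), and Stat2 and Irgm1 had 1.58 (1.03 to 2.41) and 1.47 (1.01 to 2.13). In T-like cells, as over all cells, Isg15 and Ifit3 were lowest in DJ-1 KO OVA and Ifi47 highest there. Ifit3 had the highest WT OVA to WT PBS ratio, and Ifit1 and Rsad2 followed, at 2.65 (1.56 to 4.6) and 2.28 (1.09 to 4.87), from 24 and 14 WT PBS UMIs. Gbp3, Rtp4 and Zbp1 had the lowest, at 0.579 (0.305 to 1.05), 0.63 (0.41 to 0.947) and 0.64 (0.446 to 0.905). Mx1 had the third lowest ratio between the OVA libraries, 0.429 (0.124 to 1.2).

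Many members had few UMIs in B-like cells. There 7 of 31 members were higher and 2 lower in WT OVA against WT PBS, where 14.3% and 7.76% of all genes were. In DJ-1 KO OVA, 2 of 23 were higher than in WT OVA and 4 lower, where 12.5% and 11.2% were. Oas3 and Oasl2 stood at 1.85 (0.695 to 5.04) and 2.52 (1.03 to 6.52) of their WT PBS level in WT OVA, Cxcl10 at 6.04 (2.2 to 20.6). Isg15, Isg20 and Ifit2 had the lowest ratios, at 0.503 (0.143 to 1.46), 0.566 (0.266 to 1.13) and 0.705 (0.243 to 1.84). Stat2, Mx1 and Ifi35 were highest between the OVA libraries, at 1.47 (0.903 to 2.34), 1.8 (0.654 to 4.59) and 1.92 (1.25 to 2.9), and Zbp1 and Gbp3 had 0.429 (0.0823 to 1.43) and 0.466 (0.119 to 1.34). Cxcl10 had 20 UMIs in WT OVA and none in DJ-1 KO OVA, which allows up to 3 and so a level no more than 0.472 of that in WT OVA.

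In natural killer-like cells 0 of 26 members were higher and 7 lower in WT OVA against WT PBS, where 11.3% and 9.3% of all genes were. In DJ-1 KO OVA, 4 of 20 were higher than in WT OVA and 3 lower, where 11.5% and 10.4% were. The lowest in WT OVA were Isg15, Gbp3 and Ifih1, at 0.48 (0.19 to 1.07), 0.493 (0.27 to 0.854) and 0.50 (0.145 to 1.4), and Irf1, Irf9 and Irf7 lay at 1.11 (0.952 to 1.3), 1.14 (0.796 to 1.61) and 1.27 (0.975 to 1.65). Against WT OVA, Xaf1, Ifi47 and Stat2 were highest, at 1.63 (0.866 to 3.01), 1.83 (1.28 to 2.62) and 1.9 (0.834 to 4.29), and Cxcl10, Zbp1 and Irf7 were lowest, at 0.33 (0.0627 to 1.11), 0.347 (0.12 to 0.827) and 0.653 (0.419 to 0.99).

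Dendritic-like cells, 27, 89 and 69 cells that included genes of plasmacytoid cells such as Siglech among their leading genes, had 4 of 15 members higher and 3 lower in DJ-1 KO OVA against WT OVA, where 17.5% and 12.9% of all genes were. Irf7 stood at 24.2 and 121 CPM, a ratio of 5.01 (2.55 to 10.7), Oasl2 had 4.07 (1.44 to 14.1) and Cxcl10 2.33 (1.31 to 4.29). Mx1 and Isg15 were lowest, at 0.449 (0.184 to 1.0) and 0.549 (0.243 to 1.16), with Irf1 at 0.611 (0.358 to 1.02). Irf7 was thus higher in dendritic-like and neutrophil-like cells of DJ-1 KO OVA, while its ratio was below 1 over all kept cells, at 0.714 (0.623 to 0.817). Past 1.5-fold, Irf7 was higher in 3 of 12 classes and lower in 6. The part of the mix of dendritic subsets in the ratio of 5.01 was not tested.

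Read gene by gene across classes, a few members had the same direction in most classes. For WT OVA over WT PBS, Ifi47 and Irf1 had ratios above 1 in 9 of 9 and 9 of 9 classes, Gbp2 in 8 of 9, Cxcl10 in 7 of 8 and Tap1 in 7 of 9. Isg20 was above 1 in 0 of 7, Psmb8 in 1 of 9 and Isg15 in 2 of 8. In the other comparison Bst2 was above 1 in 12 of 15 and Irgm1 in 10 of 12, and Isg15 was lower past 1.5-fold in 7 of 9 classes and Irf1 in 7 of 15. The classes share their library, so these counts are a description of 3 libraries.

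Cells that held several antiviral genes at once were counted from 12 of the members (Ifit1, Ifit2, Ifit3, Isg15, Rsad2, Cmpk2, Usp18, Oasl1, Oasl2, Mx1, Ifi44 and Rtp4), after thinning each cell to 1000 UMIs. Cells with at least 3 of the 12 numbered 63 of 3721 cells (1.69%, 1.3 to 2.16) in WT PBS, 51 of 5538 cells (0.921%, 0.686 to 1.21) in WT OVA and 11 of 3467 cells (0.317%, 0.158 to 0.567) in DJ-1 KO OVA, with Clopper-Pearson 95% intervals. Among neutrophil-like cells they were 56 of 578 cells (9.69%, 7.4 to 12.4), 28 of 566 cells (4.95%, 3.31 to 7.07) and 3 of 96 cells (3.12%, 0.649 to 8.86), and 117 of the 213 neutrophil-like cells of DJ-1 KO OVA were too shallow to enter. Unthinned, the neutrophil-like shares were 30.6%, 8.65% and 3.76%. After thinning, neutrophil-like cells made up 88.9%, 54.9% and 27.3% of all such cells in the 3 libraries. Without thinning, they were 182 of the 346 such cells of WT PBS. There 54 of 185 monocyte-like cells (29.2%) and 19 of 33 mesothelial-like cells (57.6%) also had at least 3 of the 12 genes. After thinning, only 1 of 173 monocyte-like cells (0.578%) and 0 of 33 mesothelial-like cells of WT PBS had them. In thinned monocyte-like cells of WT OVA and DJ-1 KO OVA they were 3 of 164 (1.83%) and 1 of 53 (1.89%). On these few cells, WT PBS was not the highest library in that class. The median depth of these 3 classes in WT PBS was 2946, 7351 and 13907 UMIs. The count of genes per cell is a range and defines no cell type.

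**Figure D5:**
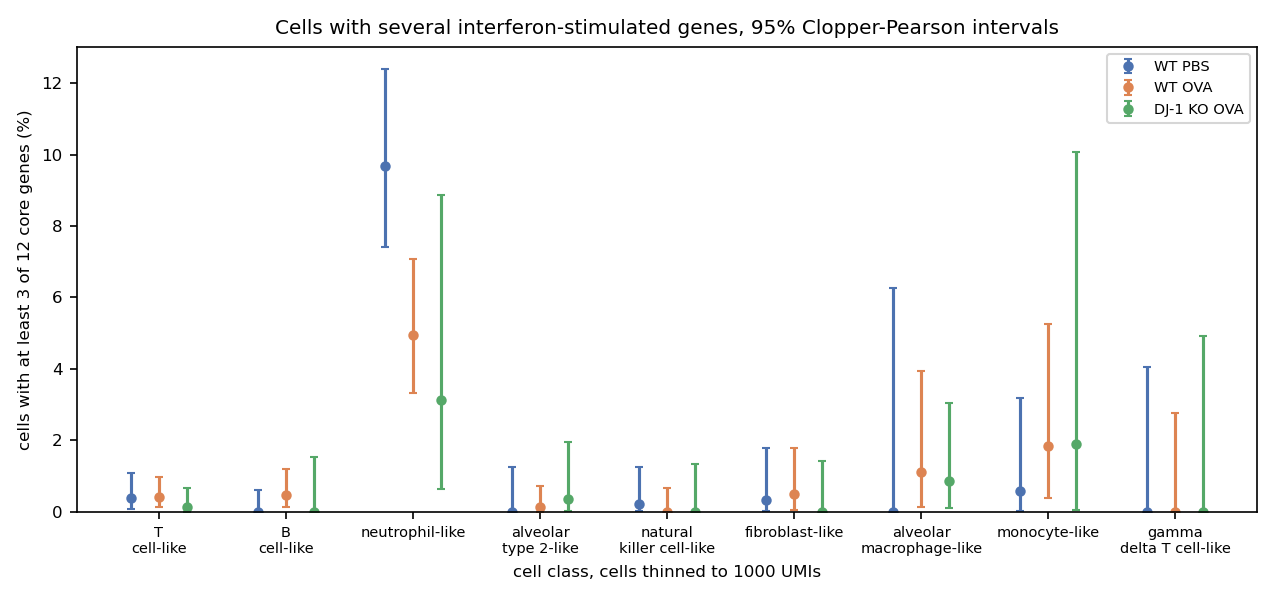
Percentage of cells with at least 3 of 12 antiviral genes after thinning to 1000 UMIs, by class, with Clopper-Pearson 95% intervals for each library. The neutrophil-like share is highest in WT PBS, and in that class the interval of DJ-1 KO OVA overlaps both others.

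The ligands themselves were scarce. Ifng, interferon gamma, stood at 14.5 CPM in WT PBS, 7.06 in WT OVA and 6.63 in DJ-1 KO OVA. Ifnb1, interferon beta, stood at 1.76 CPM in WT PBS, 2.05 in WT OVA and 2.64 in DJ-1 KO OVA, and no other interferon of the 11 searched had more than 1 UMI in any library. Their receptors were present in all libraries. The receptor chains for gamma, Ifngr1 and Ifngr2, stood at 484, 480.0 and 438 CPM and 44.9, 48.4 and 53.9 CPM. Ifnar1, of the type I receptor, stood at 88.4, 67 and 62.1 CPM and its partner Ifnar2 at 72, 57.7 and 50.6 CPM. Ifnlr1 stood at 2.82, 5.41 and 4.16 CPM and Il10rb, which pairs with it, at 53.4, 46.6 and 49.7 CPM. Over all kept cells, Ifng was lower in WT OVA, at a ratio to WT PBS of 0.489 (0.403 to 0.59). Ifnlr1, the receptor chain for lambda, was higher, at 1.92 (1.42 to 2.61). Such sums cannot tell fewer cells of a type from less RNA per cell, and neither gene is given by class here. Natural killer-like cells were 455 of 3855 in WT PBS and 588 of 5930 in WT OVA. T-like cells were 825 and 1229 of these, and alveolar type 2-like cells 303 and 770. The part of these shares in the ratios was not tested.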

How the data were processed

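Single-cell RNA libraries of lung (10x Genomics 3′ chemistry) were deposited as 1 matrix of whole-number UMI counts per library. Per the submitters' processing notes, the authors used Cell Ranger, STAR and the mm10 build, and per the file headers the matrix software was version 3.1.0; the annotation and the use of strand are not given in the sources used here. The deposited counts were read as they stand.

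Cells with fewer than 200 genes (276, 267 and 98 in WT PBS, in WT OVA and in DJ-1 KO OVA) or over 20% mitochondrial UMIs (66, 47 and 62) were left out, as were doublets called by Scrublet (expected rate 0.06) and the lower-UMI cell of each barcode shared by WT PBS and DJ-1 KO OVA. Cells were scaled to 10000 UMIs, log-transformed and clustered with scanpy 1.11.5 (2000 variable genes without the members and interferon lists, 30 principal components, 15 neighbours, Leiden resolution 1). Clusters were named from marker lists where at least 3 markers were found in at least 10% of their cells. UMIs were summed within each class of a library, and ratios of CPM were formed for genes with at least 20 UMIs over both libraries in classes with at least 50 cells in each. Past 1.5-fold counts as higher or lower, and a count of 0 allows 3 counts. For shares of cells with several antiviral genes, each cell was thinned to 1000 UMIs where stated. Intervals are 95% Poisson, conditional binomial or Clopper-Pearson, from SciPy 1.17.1, with Python 3.11.15, NumPy 2.4.6 and pandas 2.3.3. UMIs were taken as independent molecules.

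Members named in each class were the 3 with the highest and 3 with the lowest ratios, and for levels the most abundant of each role. Other genes and values, where single cells or cluster 4 are described, were chosen after the values were seen. The members and all lists were chosen with earlier results of these data known. The list of interferon signalling genes is not reported here. With 1 library per group no test was run. The scripts were tested on simulated counts. Alternatives changed the doublet, mitochondrial and shared-barcode filters, clustering, scaling, UMI minimum, thinning and cell weighting.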

Additional observations from a re-analysis of the deposited data

Results flagged for a closer look

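In 5 members, ratios between 2 libraries lay on opposite sides of 1 in 2 cell classes, with the whole interval past 1.5-fold in both. With 1 library per group, the difference between the classes was not tested in any of them.

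Cxcl10 had a DJ-1 KO OVA to WT OVA ratio of 6.3 in alveolar type 2-like cells and 0.315 in alveolar macrophage-like cells. In the alveolar type 2-like cells of DJ-1 KO OVA, 81 of its 178 UMIs came from 1 cell. Different clusters held most of that class in the OVA libraries, 732 of 770 WT OVA cells in cluster 4 and 201 of 296 DJ-1 KO OVA cells in cluster 26. Within cluster 4 the Cxcl10 log2 ratio was -0.47, so that its opposite direction in these 2 classes did not hold there. By whole intervals past 1.5-fold, Cxcl10 was higher in 3 classes and lower in 3, with mesothelial-like cells also among the higher. Irf1 had a ratio of 1.89 in alveolar type 2-like cells, 1.57 within cluster 4 and 0.491 in alveolar macrophage-like cells.

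For WT OVA over WT PBS, Isg15 had a ratio of 3.71 in alveolar macrophage-like cells and 0.471 in neutrophil-like cells. Rsad2 had 19.7 in alveolar macrophage-like cells, from 2 UMIs in WT PBS, and 0.528 in neutrophil-like cells. Cxcl9 had 5.04 in alveolar macrophage-like cells and 0.0351 in monocyte-like cells, where 55 of its 59 WT PBS UMIs came from 1 cell.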

How the results depend on the processing

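Under the alternatives, 343 of 343 member medians stayed between the median lower and the median upper bound of the members. Those bounds come from the counting error of single members and are not an interval of the median. The count therefore cannot show that the medians were stable. Of the counts past 1.5-fold, 497 stayed within 1.5 times and 189 moved. Of the named ratios 1917 stayed within their interval, 68 moved and 6 turned direction. A turn was counted only where the main ratio was past 1.5-fold and its interval excluded 1. Any other change of sign is counted among the ratios that stayed or moved. The changes that bear on the report follow.

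For WT OVA over WT PBS over all kept cells, lower members went from 10 to 1 with classes weighted by their WT OVA share. In neutrophil-like cells they went from 14 to 9 both after thinning (24 members left) and at a minimum of 100 UMIs (18 left), and in alveolar macrophage-like cells higher members went from 14 to 3 after thinning (6 left), 4 at 100 UMIs (10 left) and 23 with any UMI. Between the OVA libraries over all kept cells, higher members went from 3 to 9 without both cells of every shared barcode, 5 with cells weighted alike, 6 after thinning and 1 with classes weighted. Lower members went from 4 to 7 with cells weighted alike, 9 after thinning, 2 with classes weighted and 2 without neutrophil-like cells. In alveolar type 2-like cells higher members went from 13 to 6 after thinning (8 left), 5 at 100 UMIs (12 left), 23 with any UMI and 5 within cluster 4 (21 left). In goblet-like cells lower members went from 11 to 17 with cells weighted alike, 1 at 100 UMIs (4 left) and 19 with any UMI. How much of each change comes from the fewer members left was not tested, nor was any other cause.

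By that rule, a few log2 ratios between the OVA libraries turned. Ifit1 in neutrophil-like cells became -0.10 after thinning, Gbp2 in alveolar type 2-like cells 0.11 after thinning and 0.11 within cluster 4, and Cxcl10 there -0.47 within cluster 4. Gbp2 became -0.22 in cycling cells without both cells of every shared barcode and 1.58 in goblet-like cells without the highest cell of each library. The cause was not tested.

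Shares of cells with several antiviral genes depend on the threshold. Over all kept cells of the 3 libraries they were 4.60%, 2.46% and 1.24% with at least 2 genes, 0.645%, 0.271% and 0.115% with at least 4, and 8.98%, 3.46% and 2.34% unthinned. In neutrophil-like cells they were 22.0%, 13.6% and 9.38% with at least 2, 3.63%, 1.06% and 2.08% with at least 4, and 30.6%, 8.65% and 3.76% unthinned. With at least 4 genes the order of the OVA libraries turned, on 2 of 96 DJ-1 KO OVA cells. WT PBS was highest under each of these settings.

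Leaving out the neutrophil-like cells, cluster 4 alone, a doublet score limit of 0.25 and leaving out the highest cell were chosen after seeing the data. The 100 UMI minimum in group 2 innate lymphoid-like cells, and thinning and leaving out both shared cells in goblet-like cells, left too few members or cells and were not run, nor were promoter motifs, for which no sequence was used here. Ratios to 0 UMIs (Zbp1 in neutrophil-like, Cxcl10 in B-like and Cxcl9 in cycling cells) were not recomputed. No paired analysis was possible because each group has 1 library. Intervals cover counting error only, and with 59 alveolar macrophage-like cells in WT PBS and 213 neutrophil-like cells in DJ-1 KO OVA, ratios of members with few UMIs are wide.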

Other observations

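A wider list of interferon-stimulated genes outside the 39 had 52 genes with at least 20 UMIs. Over all kept cells its median log2 ratio was -0.20 for WT OVA over WT PBS and 0.02 between the OVA libraries. Past 1.5-fold, 1 was higher and 13 lower in the first comparison, where 10.3% and 7.71% of all genes were. In the second 2 were higher and 4 lower, where 12.3% and 9.1% of all genes were. Like the other sums over all cells, these cannot tell fewer cells of a type from less RNA per cell. The Schlafen gene Slfn5 was lowest for WT OVA over WT PBS, at 14.9 and 6.45 CPM and a ratio of 0.432 (0.354 to 0.524), followed by Ddx60 at 0.458 (0.385 to 0.543) and Slfn8 at 0.491 (0.423 to 0.569). The GTPases Tgtp1, Gbp5 and Irgm2 were highest, at 2.25 (1.42 to 3.63), 1.35 (1.15 to 1.58) and 1.27 (1.07 to 1.51). Of these 6 genes only Tgtp1 was past 1.5-fold higher.

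Between the OVA libraries the lowest of that list were the membrane proteins Ifitm1, at 127 and 67.5 CPM and a ratio of 0.531 (0.496 to 0.569), and Ifitm2, at 182 and 105 CPM and 0.574 (0.543 to 0.607), which restrict viral entry. Ifi27l2a followed, at 0.606 (0.583 to 0.63). Gbp8, Oas1g and the peptide transporter chain Tap2 were highest, at 2.43 (2.03 to 2.91), 2.02 (1.17 to 3.53) and 1.42 (1.33 to 1.51). The 11 genes of upstream sensing had medians of 0.06 and -0.07 in the 2 comparisons. The 12 immediate early genes had 0.38 and -0.32, and the 10 NF-kB genes 0.12 and -0.28.

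Some classes too small to compare also held members. Erythroid-like cells of WT PBS held 79 Rsad2 UMIs in 14 of 22 cells. Single cells held much of a member elsewhere: 1 mesothelial-like cell of WT PBS held 36 of the 44 Rsad2 UMIs of that class, and 1 goblet-like cell of WT PBS 51 of 52 Cxcl10 UMIs. In DJ-1 KO OVA 1 cycling cell held 46 of 65 Gbp2 UMIs.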
